A study of Mus musculus with 9 samples.

Results

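The mitochondrial ribosomal protein genes were taken as every symbol in the deposited expression table that is *Mrpl* or *Mrps* followed by a number and, at most, 1 letter. The rule found 77 of the 24571 symbols used, 48 named for the large subunit (*Mrpl*) and 29 for the small subunit (*Mrps*). The table holds RNA sequencing of whole hearts from C57BL/6N mouse embryos at E18.5, with 3 libraries in each of 3 groups. These were wild type, heterozygous (Ctcf +/R567W) and homozygous (Ctcf R567W/R567W) for a germline substitution in the zinc-finger protein CTCF, brought into the mouse line by CRISPR/Cas9 editing. No conditional deletion, transgene or drug treatment is described for any group. Each heart was collected separately, so a library is read here as a single embryo. Values are TPM, in which read counts are divided by transcript length and brought to the same total in each library.

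Mitochondria have their own ribosome, which translates the few messages encoded by mitochondrial DNA, all of them for membrane subunits of the respiratory chain and ATP synthase. Its RNAs are mitochondrial transcripts, whereas its proteins are encoded in the nucleus, made in the cytosol and imported. Some of these proteins are homologous to bacterial ribosomal proteins, and others are particular to mitochondria. The heart is rich in mitochondria, and inherited defects of several of these proteins cause cardiomyopathy in infants.

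Some libraries carried transcripts of other organs. Summed markers of airway and lung reached 2620 TPM in wild-type replicate 1. In heterozygous replicate 1 they reached 1107 TPM and liver markers 3940 TPM. Homozygous replicate 3 held thymocyte markers at 579 TPM, while no other library exceeded 2.95 TPM. All 10 cardiomyocyte markers were listed, and their sum was lowest in homozygous replicate 3, at 33874 TPM, the rest lying between 42129 and 49259 TPM. The 3 heterozygous libraries, wild-type replicate 1 and homozygous replicate 1 were classed as from female embryos and the other 4 as from male embryos, by their level of *Xist*. In such bulk samples, fewer cells of a type and less RNA per cell cannot be told apart.

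The 77 genes lie on 17 chromosomes in GENCODE release M21 (build mm10), with 10 on chromosome 11. Of these genes, 26 (33.8%) start head to head with another protein-coding gene on the opposite strand, from an overlap of 500 bases to a gap of 1000 bases, against 14.1% of the protein-coding genes tested. *Mrpl46* and *Mrps11*, members of the large and the small subunit, form such a pair with each other and overlap by 412 bases. By their RefSeq starts the pair is separated by 41 bases. *Mrpl36* starts against *Ndufs6*, a subunit of respiratory complex I, with an overlap of 29 bases by the outermost GENCODE starts, while RefSeq places the start of *Mrpl36* elsewhere.

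Promoter windows from 250 bases before to 50 bases after the start of the gene were taken from RefSeq (GRCm38.p6), in which 68 of the 77 genes matched. They were searched on both strands for core motifs of 3 factors known to act at promoters of nuclear genes for mitochondrial proteins. The GABPA core (NRF-2, CCGGAAG) was found for 25 genes (36.8%) against 19.7% of the 9948 tested genes with a window. The NRF-1 core (GCGCATGC) was found for 8 (11.8%) against 5.93%, and the YY1 core (AAGATGGCG) for 8 (11.8%) against 3.56%. The NRF-1 core can overlap its own reverse complement. Some genes had several windows, and each gene was counted once per motif if any of its windows matched. At least 1 of these motifs was found for 35 genes (51.5%) against 26.7% of those tested genes, and the letters TATAAA for 4 (5.88%) against 5.43%. By subunit, the GABPA core was found for 14 of 42 large-subunit and 11 of 26 small-subunit genes, the NRF-1 core for 7 and 1, and the YY1 core for 4 and 4. A match is a run of letters and not a measured binding site.

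The windows shown belong to *Mrps26*, which had the highest change in homozygous hearts, to *Mrpl42* and *Mrps36*, which were among the lowest, and to the pair *Mrps11* and *Mrpl46*. Each is written 5′ to 3′ on the strand of its gene, with motif matches in capitals. *Mrps26* holds a GABPA match in reverse orientation (chr2:130563507-130563806, plus strand). *Mrpl42* holds a YY1 match beside its start (chr10:95501900-95502199, minus strand), while *Mrps36* has none of the 3 cores (chr13:100744610-100744909, minus strand). *Mrps11* (chr7:78782881-78783180, plus strand) and *Mrpl46* (chr7:78783040-78783339, minus strand) share 141 bases, and the YY1 match of *Mrps11* lies outside the stretch they share.
Mrps26: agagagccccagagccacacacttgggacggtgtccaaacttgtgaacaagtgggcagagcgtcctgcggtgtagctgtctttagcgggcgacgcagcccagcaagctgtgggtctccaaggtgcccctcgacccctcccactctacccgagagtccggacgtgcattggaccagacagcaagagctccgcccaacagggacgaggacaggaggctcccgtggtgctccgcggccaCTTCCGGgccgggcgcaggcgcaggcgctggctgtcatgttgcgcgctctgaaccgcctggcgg
Mrpl42: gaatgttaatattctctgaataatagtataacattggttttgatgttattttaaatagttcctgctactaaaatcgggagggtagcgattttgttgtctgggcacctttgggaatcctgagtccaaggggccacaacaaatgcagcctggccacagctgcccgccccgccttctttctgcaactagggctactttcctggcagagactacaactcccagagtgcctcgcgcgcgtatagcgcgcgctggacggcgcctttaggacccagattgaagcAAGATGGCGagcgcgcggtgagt
Mrps36: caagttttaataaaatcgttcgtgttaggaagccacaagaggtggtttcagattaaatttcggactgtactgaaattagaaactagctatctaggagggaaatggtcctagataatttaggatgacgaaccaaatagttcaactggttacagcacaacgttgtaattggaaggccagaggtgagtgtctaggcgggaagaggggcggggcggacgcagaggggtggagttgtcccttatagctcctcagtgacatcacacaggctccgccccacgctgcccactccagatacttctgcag
Mrps11: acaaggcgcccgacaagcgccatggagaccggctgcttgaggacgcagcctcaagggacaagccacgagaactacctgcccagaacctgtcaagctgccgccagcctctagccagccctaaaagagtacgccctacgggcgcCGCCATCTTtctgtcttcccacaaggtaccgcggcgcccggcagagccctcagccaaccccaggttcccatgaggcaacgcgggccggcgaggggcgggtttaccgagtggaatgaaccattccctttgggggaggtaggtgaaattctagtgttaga
Mrpl46: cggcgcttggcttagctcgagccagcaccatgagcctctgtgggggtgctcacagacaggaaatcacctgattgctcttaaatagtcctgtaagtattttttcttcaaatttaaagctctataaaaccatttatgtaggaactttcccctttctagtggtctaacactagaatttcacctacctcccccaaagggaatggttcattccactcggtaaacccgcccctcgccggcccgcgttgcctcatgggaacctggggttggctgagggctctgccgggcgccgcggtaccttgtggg

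All 77 genes were expressed in every library. Their mean level over the 9 libraries ran from 9.56 TPM for *Mrpl19* to 379 TPM for *Mrpl42*, a 39.7-fold span, with a median of 55.8 TPM. The median was 57.4 TPM in the large and 52.6 TPM in the small subunit. 14 genes had a mean over 100 TPM, 56 lay between 20 and 100 TPM and 7 lay under 20 TPM, and 74 were above the median tested gene (12.0 TPM).

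At the top of the large subunit stood *Mrpl42* and *Mrpl52*, both proteins particular to mitochondria. *Mrpl42* measured 395.9, 397.8 and 416.9 TPM (wild type), 405.9, 372.1 and 400.8 TPM (heterozygous) and 376.8, 326.2 and 322.3 TPM (homozygous). *Mrpl52* averaged 256 TPM and *Mrpl33*, a homologue of a bacterial protein, 244 TPM. In the small subunit *Mrps21* and *Mrps23* led, with 294 and 213 TPM. At the bottom were *Mrpl19*, *Mrpl35* (9.91 TPM) and *Mrpl57* (9.97 TPM) in the large and *Mrps25* (15.4 TPM) and *Mrps2* (26.2 TPM) in the small subunit. The means of *Mrpl19*, *Mrpl35* and *Mrpl57* differed by less than their spread over libraries. Transcript sequence limits some of these levels, since 68.9% of the 31-base words of *Mrps25* also occur in *Nr2c2*, 84.4% of those of *Mrpl53* in *Gm42688* and 73.8% of those of *Mrps34* in other genes, and 13 of the 77 genes share over 20% of their words.

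**Figure D1:**
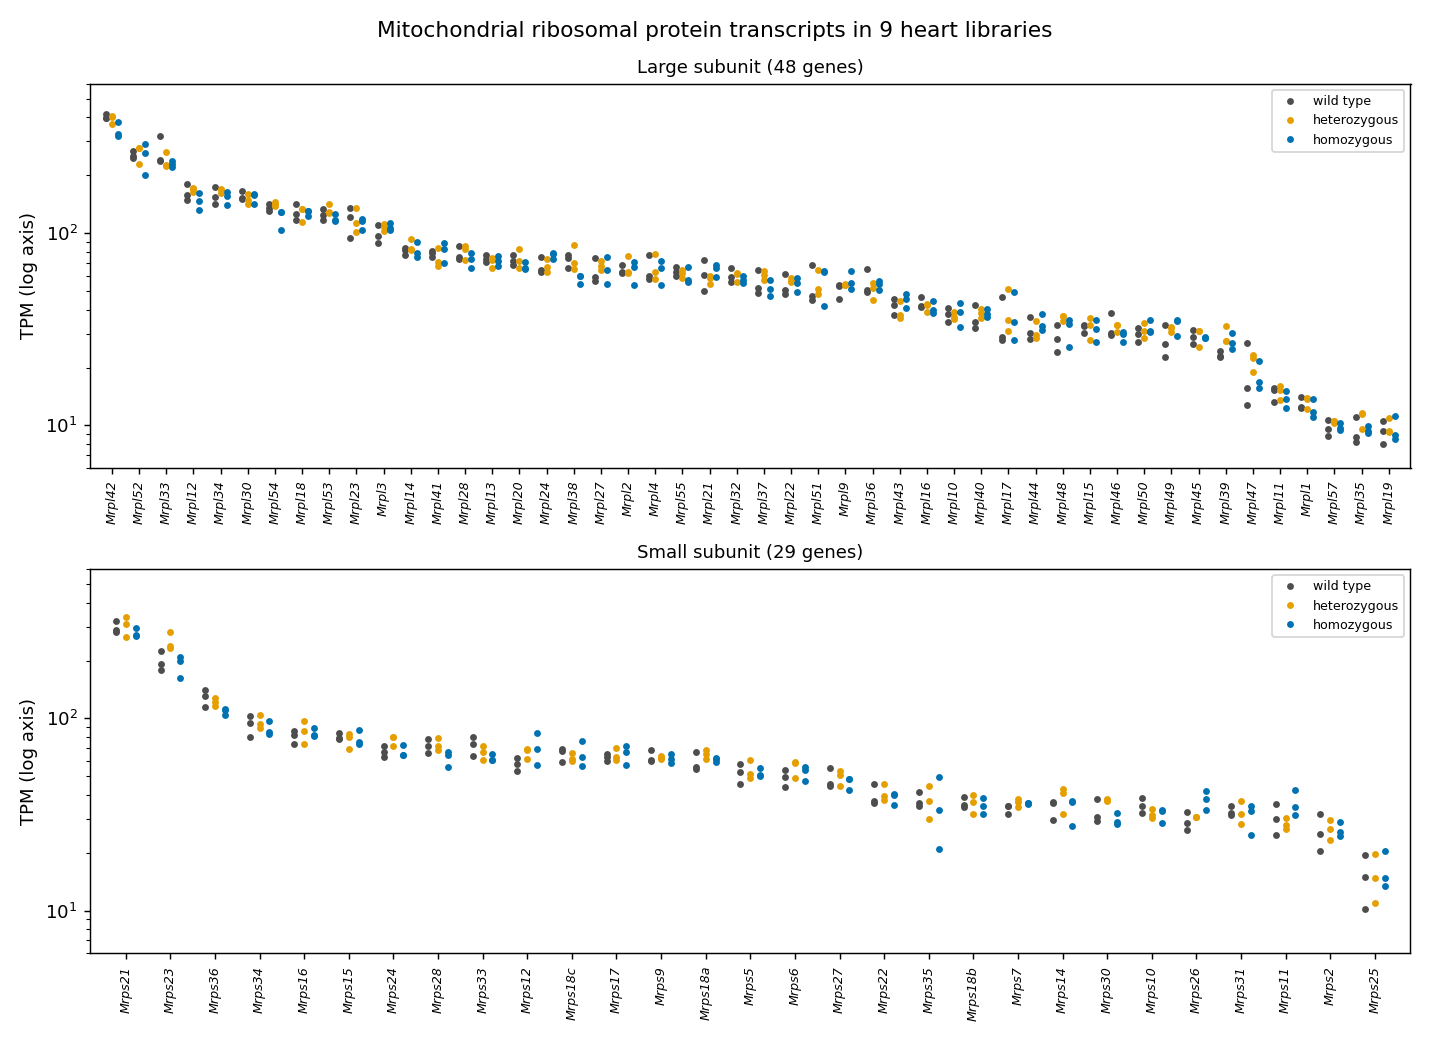
TPM (log axis) of the 48 large-subunit and 29 small-subunit genes, ordered by mean level, with each of the 9 heart libraries as a point coloured by genotype. The order of genes was much wider (9.56 to 379 TPM) than the spread of any gene over libraries, which was under 1.5-fold for 62 of the 77.

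The genes were steady across hearts. The highest library exceeded the lowest by a median of 1.34-fold, against 1.80-fold over all tested genes, and 62 of the 77 stayed under 1.5-fold. The median coefficient of variation within a group was 8.86%, against 14.5% over all tested genes and 10.6% over the 4794 tested genes whose mean reached 20 TPM. *Mrps35*, *Mrpl47* and *Mrps25* were the 3 that spanned more than 2-fold. *Mrps35*, of the small subunit, measured 41.50, 35.19 and 36.23 TPM (wild type), 37.31, 30.09 and 44.24 TPM (heterozygous) and 49.64, 20.88 and 33.57 TPM (homozygous), so its span came from 2 homozygous libraries. *Mrpl17*, a homologue of a bacterial protein, had a single high library in each group (46.52 TPM in wild-type replicate 3, 51.45 TPM in heterozygous replicate 2 and 49.33 TPM in homozygous replicate 1), and its other 6 values lay between 27.72 and 35.30 TPM. Its high libraries came from embryos of both sexes and from 3 different replicate numbers, and what set them apart was not tested.

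Together the 77 genes took 0.509% to 0.598% of a library. Their summed level was 5544, 5305 and 5963 TPM (wild type), 5811, 5429 and 5978 TPM (heterozygous) and 5644, 5536 and 5087 TPM (homozygous). The group means, 5604 ± 333, 5740 ± 282 and 5422 ± 295 TPM (SD, n = 3), differed by less than or about the spread between libraries, and the groups overlapped. Wild-type replicate 3 held the highest value of 27 genes and homozygous replicate 3 the lowest value of 27. The summed level of the large subunit was 1.79 to 1.93 times that of the small subunit in every library, at 1.91 ± 0.028 in wild-type, 1.84 ± 0.045 in heterozygous and 1.88 ± 0.032 in homozygous hearts (SD, n = 3). Heterozygous libraries (1.79 to 1.87) lay below wild-type libraries (1.88 to 1.93) without overlap, and homozygous libraries overlapped with both. Such sums are weighted toward abundant genes, among them *Mrps23*, which was itself higher in heterozygous hearts. With each gene centred on its mean and counted alike, the large-minus-small difference in log2 values did not separate these groups. It ran from −0.05 to 0.03 in wild-type and from −0.03 to 0.03 in heterozygous hearts.

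The first comparison asked whether these transcripts differ between homozygous and wild-type hearts. None of the 77 genes was called with limma at an adjusted p (Benjamini-Hochberg, over 13682 tested genes) under 0.05, against a background of 0.336% of tested genes called. At an unadjusted p under 0.05 there were 4 (5.19%), *Mrps26* higher and *Mrpl38*, *Mrpl42* and *Mrps36* lower, against a background of 25.0%. That background was made up of 3131 genes higher and 295 lower. Where a typical tested gene was higher in homozygous hearts, at a log2 change of 0.23 (median; 81.7% above 0), the mitochondrial ribosomal protein genes lay at a median of −0.02, with quartiles of −0.08 and 0.06 and 33 of 77 (42.9%) above 0. Read against the median of all genes they were lower by a median log2 of −0.25, and 73 of the 77 lay below that median. Other lists were displaced as well, with relative medians of −0.24 for the 10 cardiomyocyte markers, 9 of them below the median of all genes, and −0.42 for the 15 mitochondrially encoded transcripts, 15 of them below it. For the 82 tested nuclear genes of oxidative phosphorylation the relative median was −0.33, and 79 lay below the median of all genes. The part of cardiomyocyte content in the result was not tested. The displacement depended on the scale. It was −0.27 after median-ratio scaling, which sets a typical gene equal between libraries, −0.19 when each library was centred among genes of like exonic length, and −0.15 when it was centred among genes of like level. Without the 3 libraries that carried transcripts of other organs it was −0.22, and 0 of the 77 genes were called. Their median exonic length is 2255 bases, against 4296 bases for tested genes.

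The displacement could be followed library by library. For each library a score was taken as the mean of the log2 values after centring each gene on its 9-library mean, and the score over all tested genes was subtracted. It was 0.14, 0.09 and 0.10 in wild-type, −0.03, 0.03 and 0.03 in heterozygous and −0.08, −0.13 and −0.15 in homozygous hearts, with group means of 0.11 ± 0.029, 0.01 ± 0.033 and −0.12 ± 0.037 (SD, n = 3). The 3 groups did not overlap, with heterozygous hearts in between. The score of the genes alone overlapped between groups (−0.10 to 0.11 in wild-type, −0.03 to 0.10 in heterozygous and −0.11 to 0.03 in homozygous hearts), while that of all tested genes ran from −0.20 to 0.02 in wild-type and from 0.04 to 0.14 in homozygous hearts. On the deposited scale the groups thus separated after the score of all genes was subtracted. Median-ratio scaling removes the shift of a typical gene between libraries as well, so it is another form of the same correction and no separate check. After it the score of the 77 genes ran from 0.07 to 0.19 in wild-type, 0.00 to 0.02 in heterozygous and −0.17 to −0.09 in homozygous hearts.

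**Figure D2:**
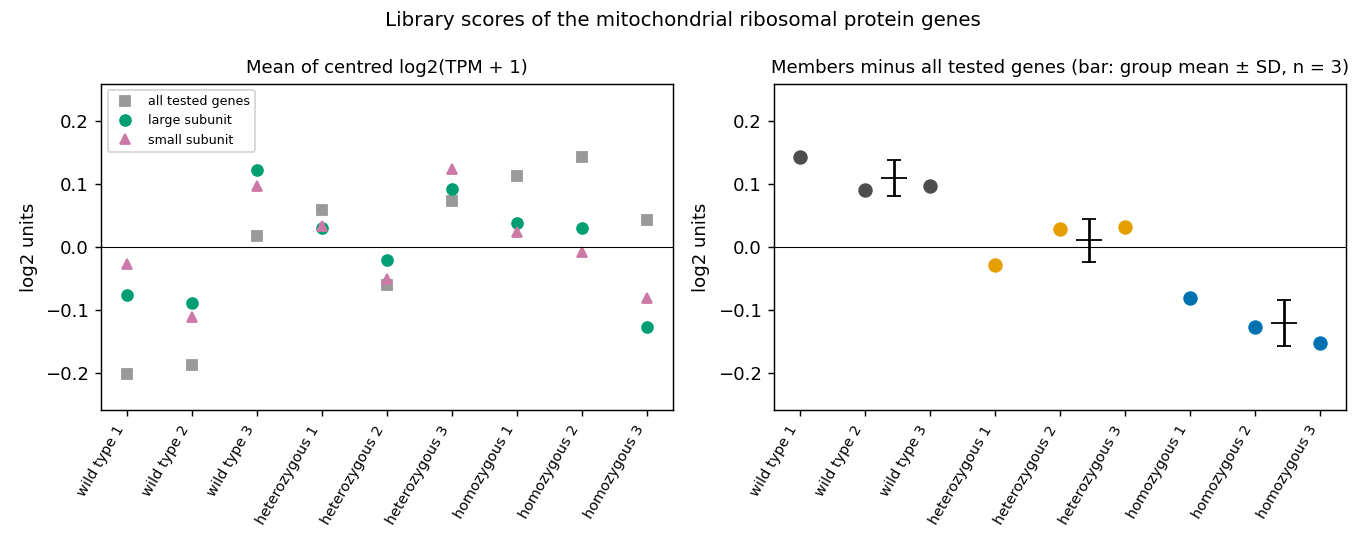
Left, mean centred log2(TPM + 1) per library for all tested genes (squares), the large subunit (circles) and the small subunit (triangles). Right, the score of the 77 genes minus that of all tested genes per library, with group mean and SD (n = 3), which falls from 0.11 in wild-type to −0.12 in homozygous hearts without overlap.

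The median changes of the large and the small subunit lay close together. Homozygous against wild type, the median log2 change was −0.01 for the large and −0.02 for the small subunit, and 47 of 48 and 26 of 29 genes lay below the median of all genes. The difference between the subunits was 0.01 in this comparison, 0.02 in homozygous against heterozygous and −0.01 in heterozygous against wild-type hearts. The large-minus-small score of single libraries had a pooled SD of 0.039 within groups. That is a spread of mean scores between libraries and does not measure the error of these differences between medians. *Mrps30* and *Mrps18a* are named for the small subunit but have been found in the large subunit, and *Mrps36* is a part of the 2-oxoglutarate dehydrogenase complex. When *Mrps30* and *Mrps18a* were counted as large and *Mrps36* was left out, the medians were −0.01 and −0.02 for homozygous against wild type.

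**Figure D3:**
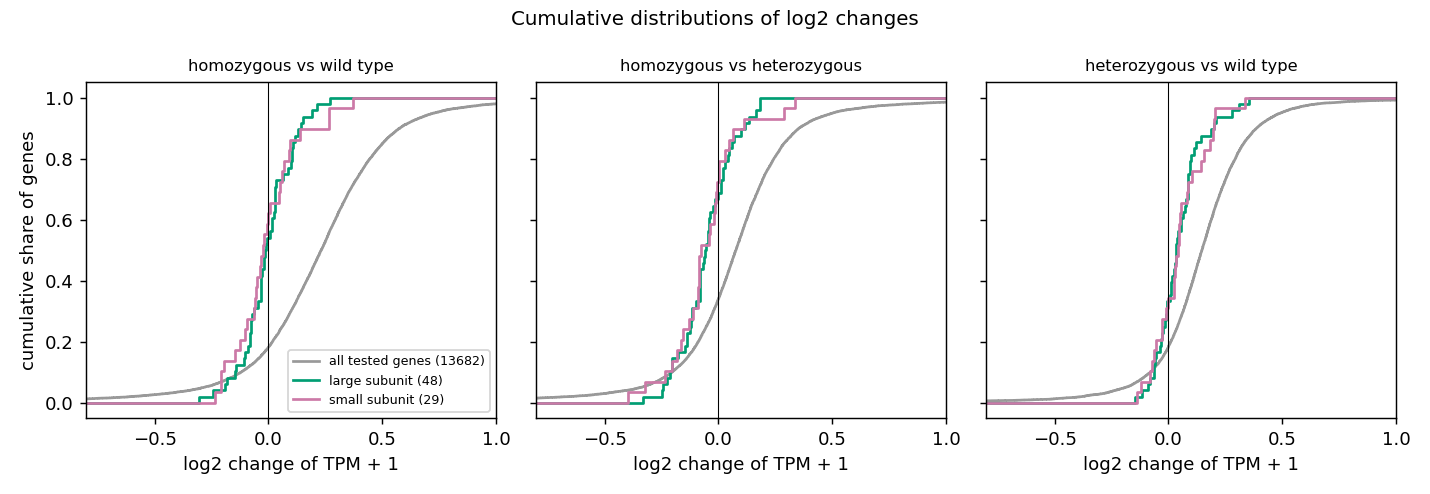
Cumulative share of genes against the fitted log2 change of TPM + 1 for all 13682 tested genes, the 48 large-subunit and the 29 small-subunit genes, in each comparison. The curves of the subunits run together and lie left of the curve of all genes, with medians of −0.01 and −0.02 against 0.23 for homozygous against wild type.

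Among small-subunit genes *Mrps26*, which encodes a protein particular to mitochondria, was the furthest up. It measured 28.49, 26.24 and 32.50 TPM (wild type), 30.80, 30.80 and 30.63 TPM (heterozygous) and 33.47, 38.27 and 41.98 TPM (homozygous). Each homozygous library was above each of the other 6. The log2 change was 0.37 ± 0.12 (SE), at a limma adjusted p of 0.131 against wild type, and it passed the threshold, at 0.45 with an adjusted p of 0.0394, when wild-type replicate 3 was left out. That fit called many more genes over the whole table than the main fit, so the pass is not particular to *Mrps26*. After median-ratio scaling the change of *Mrps26* was 0.14 (adjusted p = 0.576). An exon of *4930473A02Rik* overlaps it on the opposite strand (chr2:130563742-130568695 for *Mrps26*), and the use of strand in the counting is not stated.

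*Mrps12*, the homologue of the bacterial protein at the decoding centre, measured 62.01, 53.08 and 58.04 TPM (wild type) and 69.17, 84.32 and 57.44 TPM (homozygous). Its log2 change was 0.27 (limma adjusted p = 0.254), or 0.03 (adjusted p = 0.927) after median-ratio scaling, and homozygous replicate 3 lay within the wild-type range. *Mrps11*, a homologue of a bacterial platform protein, measured 24.69, 29.93 and 35.82 TPM (wild type), 30.51, 26.54 and 27.98 TPM (heterozygous) and 34.79, 42.63 and 31.48 TPM (homozygous), with a log2 change of 0.26 (limma adjusted p = 0.300). Its overlapping neighbour *Mrpl46*, a large-subunit protein with a Nudix-like fold, measured 30.10, 29.49 and 38.27 TPM (wild type) and 29.97, 30.57 and 27.30 TPM (homozygous). Its log2 change was −0.14 (limma adjusted p = 0.467), so the values of this pair had opposite signs although the genes start side by side, and reads of the overlap could have been assigned to either. After median-ratio scaling the changes were 0.03 (adjusted p = 0.899) for *Mrps11* and −0.38 (adjusted p = 0.0346) for *Mrpl46*.

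On the other side of the small subunit, *Mrps36* measured 114.7, 131.2 and 140.9 TPM (wild type), 122.0, 116.0 and 127.0 TPM (heterozygous) and 110.8, 111.6 and 104.5 TPM (homozygous). All homozygous libraries lay below the other 6. The log2 change against wild type was −0.24 ± 0.10 (SE), at a limma adjusted p of 0.189, and −0.48 with an adjusted p of 0.0167 after median-ratio scaling. 16.1% of its 31-base words also occur in the pseudogene *Mrps36-ps1*. *Mrps33* and *Mrps28* had changes of −0.21 each, with limma adjusted p-values of 0.268 and 0.267, and both overlapped with wild type.

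In the large subunit *Mrpl38*, a protein with a phosphatidylethanolamine-binding-like domain, had the lowest change. It measured 65.79, 74.12 and 76.87 TPM (wild type), 64.83, 87.03 and 70.01 TPM (heterozygous) and 59.96, 60.07 and 54.70 TPM (homozygous). The homozygous libraries were below all others, with a log2 change of −0.30 ± 0.13 (SE), at a limma adjusted p of 0.176 against wild type. *Mrpl38* lies at chr11:116131817-116138868 on the minus strand and shared no 31-base word with another gene. *Mrpl42*, whose values are given with the levels, had a log2 change of −0.24 ± 0.09 (SE), at a limma adjusted p of 0.154. The nearest libraries were at 376.8 TPM in homozygous and 395.9 TPM in wild-type hearts. After median-ratio scaling its change was −0.48 (adjusted p = 0.0359), and −0.44 among genes of like exonic length, where it was the gene called.

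*Mrpl33* had a log2 change of −0.19 (limma adjusted p = 0.342), with a single high value of 319.1 TPM in wild-type replicate 1 and 221.8 to 263.0 TPM in the other 8 libraries. Toward higher values stood *Mrpl49* with a log2 change of 0.27, *Mrpl39*, a protein related to threonyl-tRNA synthetase, with 0.22, and *Mrpl24*, a homologue of a bacterial protein, with 0.19, at limma adjusted p-values of 0.263, 0.278 and 0.287. *Mrpl39* was the only one of these 3 whose homozygous and wild-type libraries did not overlap. It measured 22.89, 22.69 and 24.40 TPM (wild type), 27.65, 27.33 and 32.86 TPM (heterozygous) and 26.85, 30.20 and 24.88 TPM (homozygous). After median-ratio scaling the changes of *Mrpl39* and *Mrpl24* were −0.02 and −0.05, so their direction depended on the scale. In all, 29 of the 33 genes with a change above 0 were below 0 on that scale, and *Mrps26*, *Mrps11*, *Mrps12* and *Mrpl49* kept a change above 0.

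**Figure D4:**
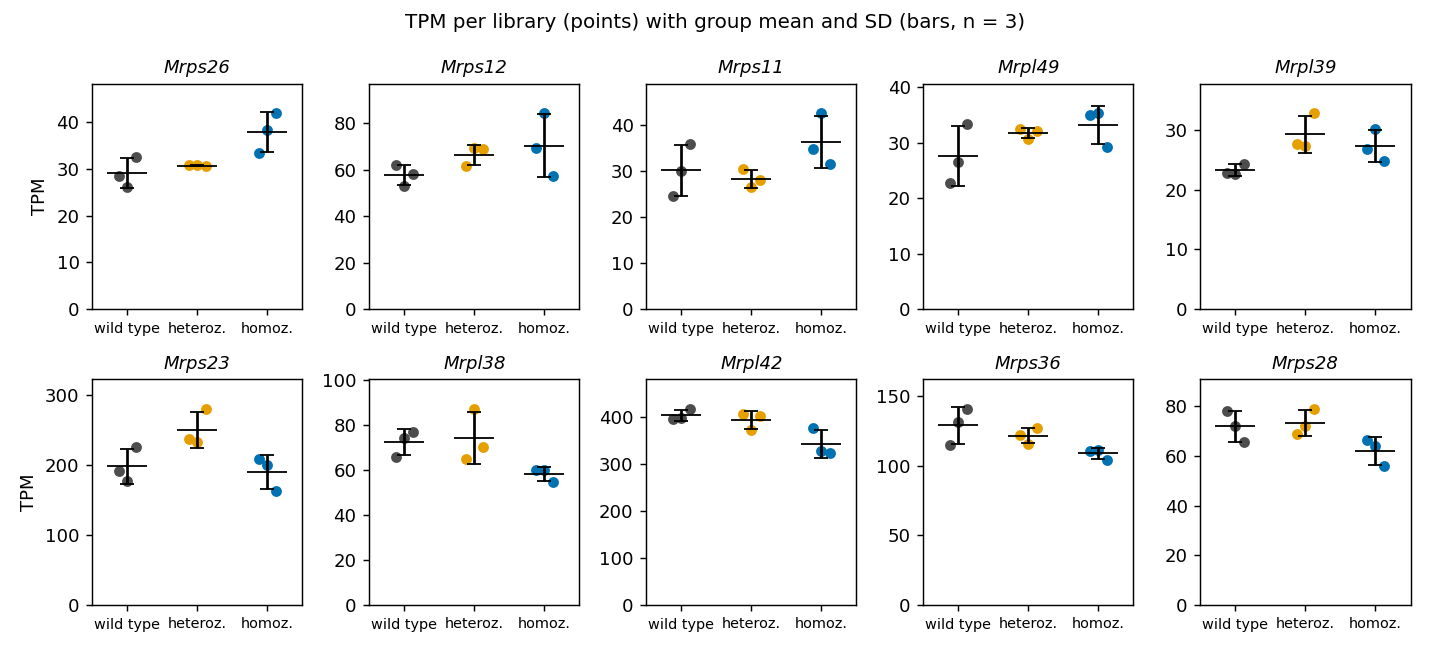
TPM per library in wild-type, heterozygous and homozygous hearts for 10 of the genes named in the text, with group mean and SD (n = 3) and axes from 0. Homozygous libraries lie above all others for *Mrps26* and below all others for *Mrpl38* and *Mrps36*, and heterozygous libraries lie above the others for *Mrps23*.

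By counts, 3 genes (3.90%) had all homozygous libraries above all wild-type libraries, *Mrps26*, *Mrpl39* and *Mrps7*, against 22.3% of tested genes, and 4 (5.19%) had them below, *Mrpl38*, *Mrpl42*, *Mrpl54* and *Mrps36*, against 2.38%. After median-ratio scaling the picture was one-sided. 43 of the 77 genes (55.8%) lay below wild type without overlap, against 12.2% of tested genes, and 0 lay above, against 10.3%. On that scale 4 genes (5.19%) were called lower with limma, against 1.37% of tested genes, and 0 were called higher, while 46, all lower, had an unadjusted p under 0.05, against 10.9% of tested genes lower at that p. The 4 were *Mrpl12* (log2 change −0.39, adjusted p = 0.0307), *Mrpl42*, *Mrpl46* and *Mrps36*. *Mrpl12* is the stalk protein homologous to bacterial L7/L12, and measured 149.4, 158.5 and 180.0 TPM (wild type) and 162.1, 147.1 and 131.4 TPM (homozygous) before scaling, where the groups overlapped. Nuclear genes of oxidative phosphorylation also lay lower after this scaling. Of the 82 tested, 66 were below wild type without overlap and 1 was above, with 16 called lower and 0 higher. Among the 10 cardiomyocyte markers 5 were below without overlap and 0 above, and 0 were called. Scaling factors ran from 0.837 to 1.14 between libraries.

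Of the genes named for inherited human disease, *Mrpl12* is given above. Between homozygous and wild-type hearts *Mrpl3* had a log2 change of 0.13, *Mrpl44*, which resembles ribonuclease III, 0.10, *Mrps22* −0.04 and *Mrps14* −0.02, with limma adjusted p-values of 0.435, 0.640, 0.865 and 0.933. After median-ratio scaling *Mrpl3* and *Mrpl44* had the opposite sign, at −0.11 and −0.13. The paralogues *Mrps18a*, *Mrps18b* and *Mrps18c* averaged 61.7, 35.8 and 64.4 TPM and had changes of 0.05, −0.05 and −0.01 (limma adjusted p = 0.766, 0.812 and 0.976), with *Mrps18a* at −0.19 after median-ratio scaling. *Mrpl23*, which lies 34.8 kb from the imprinted gene *H19*, measured 122.0, 94.42 and 135.6 TPM (wild type) and 115.3, 118.5 and 103.9 TPM (homozygous), with a log2 change of −0.05 (limma adjusted p = 0.862). *Mrpl58*, the peptidyl-tRNA hydrolase of the large subunit, is listed under its older symbol *Ict1*, which the rule did not take. It had a log2 change of −0.05 (limma adjusted p = 0.816).

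For homozygous against heterozygous hearts, which share the homozygous libraries with the first comparison, 0 of the 77 genes were called with limma, against 0.0439% of tested genes. At an unadjusted p under 0.05 there were 5 (6.49%), 4 lower and 1 higher. The background was 7.15%, with 317 of the 13682 tested genes lower and 661 higher. The median log2 change was −0.06 against 0.08 over all tested genes, and 68 of the 77 lay below that median. 10 genes (13.0%) had all homozygous libraries below all heterozygous ones, against 3.85% of tested genes, and 2 (2.60%), *Mrps11* and *Mrps26*, had them above, against 12.0%. After median-ratio scaling 25 (32.5%) lay below, against 9.31% of tested genes, and 1 lay above, against 7.64%. On that scale 16 genes (20.8%), 15 lower and 1 higher, had an unadjusted p under 0.05. Of all 13682 tested genes, 1312 had such a p, 843 lower and 469 higher. The 10 on the deposited scale were *Mrpl12*, *Mrpl37*, *Mrpl38*, *Mrpl53*, *Mrpl54*, *Mrpl57*, *Mrps23*, *Mrps28*, *Mrps30* and *Mrps36*.

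*Mrps23*, a small-subunit protein particular to mitochondria, had the lowest change between homozygous and heterozygous hearts. It measured 191.1, 178.0 and 225.6 TPM (wild type), 237.3, 233.4 and 280.7 TPM (heterozygous) and 208.3, 199.8 and 162.6 TPM (homozygous). Heterozygous libraries stood above the other 6, whereas homozygous and wild-type libraries overlapped. The log2 change was −0.40 ± 0.13 (SE), at a limma adjusted p of 0.624 against heterozygous hearts, and −0.06 (adjusted p = 0.784) against wild type. *Mrpl38* followed with −0.33 (limma adjusted p = 0.663), *Mrps30* with −0.32 (adjusted p = 0.663) and *Mrpl54* with −0.25 (adjusted p = 0.698). *Mrps30* measured 37.95, 36.98 and 37.48 TPM (heterozygous) and 28.33, 29.02 and 32.03 TPM (homozygous), while wild-type replicate 1, at 38.09 TPM, was above both. On the upper side were *Mrps11* with 0.34 (limma adjusted p = 0.715) and *Mrps26* with 0.29 (adjusted p = 0.698).

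Heterozygous and wild-type hearts, which share libraries with both other comparisons, were compared to ask whether a single mutant allele moved these transcripts. 0 of the 77 genes were called with limma, against 0.0146% of tested genes, and 3 (3.90%), all higher, had an unadjusted p under 0.05. The background was 6.87%, with 861 of the 13682 tested genes higher and 79 lower. The 3 were *Mrpl48* (log2 change 0.36), *Mrps23* (0.34) and *Mrpl39* (0.31), each with a limma adjusted p of 0.672. *Mrpl48*, of the large subunit, measured 33.35, 24.08 and 28.05 TPM (wild type), 37.23, 34.87 and 37.21 TPM (heterozygous) and 33.88, 35.47 and 25.55 TPM (homozygous). These 3 genes and *Mrps24* (5.19%) had all heterozygous libraries above all wild-type ones, against 12.8% of tested genes, and 0 had them below, against 1.03%. Median-ratio scaling turned these counts round, with 21 (27.3%) below, against 6.97% of tested genes, and 1 above, against 6.07%. After it 15 genes (19.5%), all lower, had an unadjusted p under 0.05, where 433 of the 13682 tested genes were lower with such a p. At the lower end on the deposited scale, *Mrpl33* had a log2 change of −0.15 and *Mrps10* −0.14. The median over the 77 genes was 0.04 against 0.15 over all tested genes. All heterozygous embryos were female and 1 of the 3 wild-type embryos was. Sex was therefore entered as a term in a further fit, which called 0 of the 77 genes in each comparison. The main fit had called 0 as well, so this count cannot show the part of sex. For homozygous against heterozygous hearts the member median relative to all genes was −0.0786 with the sex term and −0.14 without it.

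The genes that start beside another gene allowed a comparison within a locus. 23 of the partners were tested and were no mitochondrial ribosomal protein gene. Between homozygous and wild-type hearts their median log2 change was 0.24, close to that of all genes, against 0.01 for the *Mrp* genes they face, and the partner had the higher change in 19 of the 23 pairs. Most partners were expressed at lower levels than the *Mrp* genes they face, so level was not held equal, and its part was not tested. None of the partners was called with limma, and 8 of the 23 had an unadjusted p under 0.05, 6 of them higher, where 25.0% of tested genes had such a p and 22.9% were higher with it. After median-ratio scaling 3 had such a p, 1 of them higher, where 2556 of 13682 tested genes had such a p and 1061 were higher with it. On that scale *Zfp189* was called higher and *Ndufs6* lower. *Mrpl36* and *Ndufs6* ran the other way. *Mrpl36* measured 50.61, 49.48 and 64.87 TPM (wild type) and 56.63, 50.81 and 54.55 TPM (homozygous), a log2 change of −0.02 (limma adjusted p = 0.947). *Ndufs6* measured 413.4, 388.4 and 427.9 TPM (wild type) and 350.8, 331.0 and 312.9 TPM (homozygous), with a log2 change of −0.31 (limma adjusted p = 0.113) and −0.55 (adjusted p = 0.0187) after median-ratio scaling. *Mrps12* and *Sars2*, the mitochondrial seryl-tRNA synthetase, start 172 bases apart and had changes of 0.27 and 0.25, which were 0.03 and 0.02 after median-ratio scaling. *Mrpl50* and the zinc-finger gene *Zfp189*, 83 bases apart, had changes of 0.12 and 1.08 (limma adjusted p = 0.536 and 0.0573). After median-ratio scaling these were −0.12 (adjusted p = 0.523) and 0.90 (adjusted p = 0.0263). *Zfp189* measured 1.87, 1.87 and 2.94 TPM (wild type) and 6.25, 6.06 and 4.97 TPM (homozygous), and *Mrpl50* measured 27.24, 29.90 and 31.96 TPM against 35.30, 30.67 and 30.84 TPM.

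The other parts of mitochondrial translation were read beside the ribosomal proteins, and none of their genes was called with limma in any of the 3 comparisons. Between homozygous and wild-type hearts the median log2 change was 0.22 over 26 factors of ribosome assembly and mitochondrial RNA handling, 0.15 over 17 mitochondrial aminoacyl-tRNA synthetases and 0.07 over 12 translation factors. It was 0.18 over 6 genes listed as mitochondrial ribosomal proteins with other symbols. That list included *Oxa1l* (0.20), which encodes an inner-membrane insertase and no ribosomal protein, and left out *Ict1* (−0.05). At an unadjusted p under 0.05 there were 5 assembly and RNA factors, 4 synthetases and 2 translation factors, all higher, as were 22.9% of tested genes. After median-ratio scaling the counts were 1 higher and 3 lower, 0 higher and 1 lower, and 1 higher and 3 lower. On that scale 1061 of the 13682 tested genes were higher at such a p and 1495 were lower. All 17 synthetases had a change above 0, against 81.7% of tested genes, and 8 of 17 had one after median-ratio scaling. Of the 6, *Dap3*, a small-subunit protein, had a log2 change of 0.26 (limma adjusted p = 0.253) and *Chchd1*, another, −0.22 (adjusted p = 0.206). The 82 tested nuclear genes of oxidative phosphorylation had a median of −0.09 and the 84 tested cytosolic ribosomal proteins one of 0.12. Cytosolic ribosomal proteins were above the median of all genes in homozygous against heterozygous hearts (0.13 against 0.08), where the mitochondrial ones were below it (−0.06). Against wild type the cytosolic ribosomal proteins also lay below that median. In homozygous hearts 74 of the 84 were below it (0.12 against 0.23), and in heterozygous hearts all 84 were (−0.02 against 0.15).

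**Figure D5:**
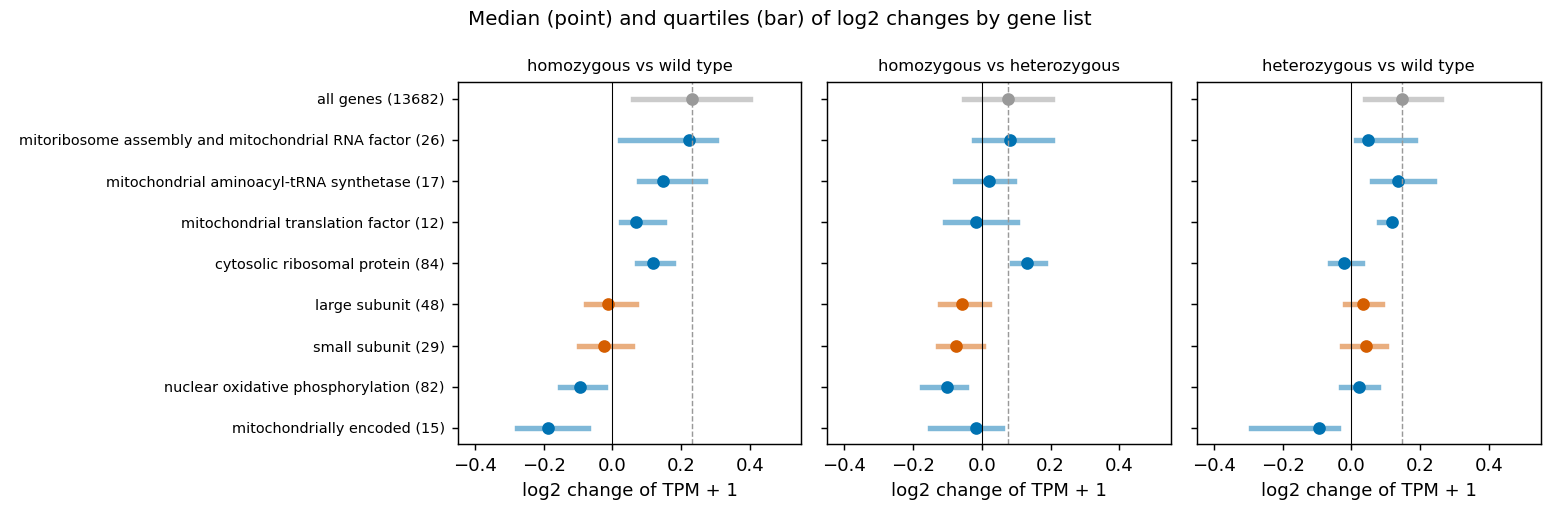
Median (point) and quartiles (bar) of the fitted log2 change of TPM + 1 for all tested genes, the subunits of the mitochondrial ribosome (orange) and other gene lists (blue) in each comparison, with the number of tested genes in brackets and the median of all genes as a dashed line. For homozygous against wild type the subunits (−0.01 and −0.02) lie between the cytosolic ribosomal proteins (0.12) and the nuclear genes of oxidative phosphorylation (−0.09).

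Single factors named after their values were seen are *Mtif3*, an initiation factor with the highest change of these lists in homozygous hearts, *Mtg2*, a GTPase of large-subunit assembly, and *Vars2*, the mitochondrial valyl-tRNA synthetase. *Mtif3* measured 6.43, 6.13 and 12.23 TPM (wild type), 10.48, 10.72 and 12.81 TPM (heterozygous) and 21.18, 16.13 and 10.55 TPM (homozygous), with a log2 change of 0.88 (limma adjusted p = 0.121) and groups that overlapped. *Mtg2* measured 11.09, 8.27 and 12.84 TPM (wild type) and 15.40, 15.32 and 15.92 TPM (homozygous), without overlap, with a log2 change of 0.52 (limma adjusted p = 0.118). *Vars2* had a log2 change of 0.50 (limma adjusted p = 0.118). For the RNAs of the mitochondrial ribosome, *mt-Rnr2*, the large-subunit RNA, was listed at 3940, 5504 and 726 TPM (wild type), 1023, 884 and 644 TPM (heterozygous) and 679, 726 and 793 TPM (homozygous). Wild-type replicate 3 thus lay among the mutants, and the log2 change of −1.78 (limma adjusted p = 0.129) rested on the other 2 wild-type libraries. *mt-Rnr1*, the small-subunit RNA, had a log2 change of −0.50 (limma adjusted p = 0.274). The libraries were made by poly-A capture, so the level of these RNAs also depends on how the capture took them up, which was not tested.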

How the data were processed

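The authors sequenced poly-A RNA of E18.5 mouse hearts, trimmed reads with Trim Galore, aligned them to mm10 with STAR and quantified genes with RSEM. The deposited values are TPM per gene and library, which the authors scaled by transcript length and library total (999100 to 999245 per library). The annotation release and use of strand are not given in the sources used here. TPM keeps no depth, so counting error is unknown. The authors' own test, DESeq2, needs counts and was not run.

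26 symbols turned into dates were left out. log2(TPM + 1) was fitted for the 13682 genes whose mean reached 1 TPM, all 77 members included, with limma (v3.58.1, R v4.3.3; trend, 9 libraries, no covariate, two-sided, Benjamini-Hochberg over all genes, called at an adjusted p under 0.05). Fold changes are on the log2(TPM + 1) scale and p-values measure the spread between these libraries. The procedure was tested on simulated data. List medians are descriptions without a test.

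Libraries were grouped by their labels. Members and lists were chosen with earlier results of these data known. Named genes were, by subunit, the 3 highest and 3 lowest changes between homozygous and wild type and the 2 highest and 2 lowest levels, the 2 highest and 2 lowest changes in the other comparisons, disease genes, paralogues and *Mrpl23*. Others were named after their values were seen. Same-numbered libraries were not treated as pairs in the main fit. Their correlations were −0.03 to 0.36, over 0.1 in 2 of 9 pairs, and 6 of the 9 libraries correlated best with their own number, so pairing remains unknown. Alternatives covered pseudocounts, filters, scaling, fits, sex, pairing and left-out libraries. Whether 3 libraries per group came from different litters is not stated.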

Additional observations from a re-analysis of the deposited data

How the results depend on the processing

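For homozygous against wild type, 4 members were called after median-ratio scaling (all lower), 1 after centring within bins of exonic length (*Mrpl42*, lower), and 25 with arrayWeights, whose weight estimate stopped before it converged and which called 8755 genes in all. Leaving out 1 library gave 0 to 1 calls, the 1 being *Mrps26* without wild-type replicate 3, where 2170 genes were called in all against 46. With arrayWeights 1 member was called for homozygous against heterozygous (234 of all genes) and 19 for heterozygous against wild type (4425 of all genes). Every other setting called 0 members. The member median relative to all genes kept its sign in each setting. For homozygous against wild type (−0.25) it was −0.18 with a pseudocount of 5, −0.13 without a filter on low values, −0.15 after quantile normalization, −0.21 with arrayWeights, −0.27 to −0.21 with 1 library left out, −0.22 without the 3 libraries with transcripts of other organs, −0.19 within bins of length and −0.15 within bins of level. For homozygous against heterozygous (−0.14) it was −0.0984 without a filter, −0.0912 after quantile normalization, −0.0786 with a sex term and −0.0927 within bins of level. For heterozygous against wild type (−0.11) it was −0.0706 with a pseudocount of 5, −0.0375 without a filter, −0.0695 after quantile normalization, −0.0715 without the 3 libraries and −0.0667 within bins of length. The difference between the subunits for homozygous against heterozygous was −0.0238 with the reassigned subunits and −0.021 to 0.0326 with 1 library left out, and for heterozygous against wild type −0.0566 with arrayWeights. *Mrpl24* (−0.049) and *Mrpl39* (−0.0183) changed sign after median-ratio scaling, as 29 of the 33 members with a change above 0 did for homozygous against wild type. The fit with a replicate block called 0 members in each comparison. Its medians were the same by design, since every replicate number occurs in every group, so they are no separate check. By correlation, 6 of the 9 libraries went best with their own number. The settings without the 3 libraries, with male embryos only and with centring in bins were chosen after seeing the data. The causes were not tested. TPM without counts leaves the precision of low members unknown.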
